A study of Mus musculus with 163 samples.

Results

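*Cckar* encodes the cholecystokinin A receptor, a Gq-coupled receptor for the gut and brain peptide cholecystokinin. The cells described here are Agrp-low neurons among the GFP-positive cells of the medial basal hypothalamus, split by their own *Cckar* level. Agrp-low means *Agrp* below 10 log2RPM, where RPM is reads scaled to a library of 1 M reads, and the other 48 cells were Agrp-high. A cell was called *Cckar*-positive at 5 RPM (2.32 log2RPM) or more, which gave 27 *Cckar*-positive and 88 *Cckar*-negative Agrp-low cells. Both groups were chosen by the measured *Agrp* and *Cckar* values of the same cells, so each difference below is a description and no p-value was computed.

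The cells came from young adult male mice fed *ad libitum*, of the strain given as C57/BL6 Tg(Pomc-EGFP)1Low, in which enhanced GFP is placed under *Pomc* regulatory sequences. All cells share that genotype, diet and sort, and no group was treated. Single GFP-positive neurons were sorted into plates after papain digestion, and each gave its own SMART-Seq v4 library. GFP marks cells in which the *Pomc* transgene is or was active, so the sort does not fix the level of *Pomc* itself. Neither animals, plates nor batches are named in the labels. All cells are therefore 1 sample, and each SD below is a spread over cells. Depth was 1.46 to 41.9 M reads per cell (median 8.10 M), and 12186 genes other than *Cckar* were compared.

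Pro-opiomelanocortin (POMC) neurons of the arcuate nucleus make melanocortin peptides that reduce food intake through melanocortin receptors. Cholecystokinin is released from the gut after a meal and is also made by neurons, and it acts through an A and a B receptor. In cells that carry the A receptor it acts through Gq and phospholipase C, which release calcium from internal stores.

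*Cckar* (ENSMUSG00000029193) lies on chromosome 5 at 53698484 to 53707704 in GRCm38, as the authors' table gives it. In the 27 positive cells its level ranged from 2.83 to 8.53 log2RPM, with a median of 6.61 and a mean of 6.19 ± 1.42 (SD, n = 27 cells). In the 88 negative cells it ranged from the floor of -0.91, which stands for 0 reads, to 2.30, with a mean of -0.37 ± 0.65 (SD, n = 88 cells). The 2 lowest positive cells stood at 2.83 and 3.63 log2RPM, and the 2 highest negative cells at 2.30 and 1.7. At least some *Cckar* reads lay in 57/88 negative cells. The *Agrp* cut-off fell between cells at 9.99 and 10.12 log2RPM, and the Agrp-low cell below the first of these was at 7.15.

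*Cckar*-positive cells made up 23.5% of Agrp-low cells (27 positive against 88 negative cells; exact Clopper-Pearson 95% interval 16.1 to 32.3%). Among Agrp-high cells the share was 2.08% (1/48; 0.0527 to 11.1%), at a median depth of 8.45 M reads against 8.09 M in Agrp-low cells. These intervals cover counting error only. *Cckbr*, which encodes the B receptor, was at 5 RPM or more in 2/27 *Cckar*-positive and 8/88 *Cckar*-negative cells.

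The 27 *Cckar*-positive cells fell apart by *Pomc*. In 18 of them *Pomc* was at 12.25 log2RPM or more, up to 15.49, and in the other 9 it ran from 2.89 to 10.36, with no cell in between. *Pomc* of at least 12 log2RPM was found in 66.7% of *Cckar*-positive cells (18/27; 46 to 83.5%) and in 18.2% of *Cckar*-negative cells (16/88; 10.8 to 27.8%). Read the other way, 18 of the 34 Pomc-high cells (52.9%) and 9 of the 81 Pomc-low cells (11.1%) were *Cckar*-positive. Mean *Pomc* was 11.56 ± 4.15 in positive and 8.50 ± 3.62 in negative cells, a difference of 3.06 on the log2 scale. The ranges overlapped, since *Pomc* in negative cells ran from 1.01 to 16.06. *Cckar* itself was at 6.49 ± 1.51 in the 18 Pomc-high and 5.58 ± 1.05 in the 9 Pomc-low positive cells.

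**Figure D1:**
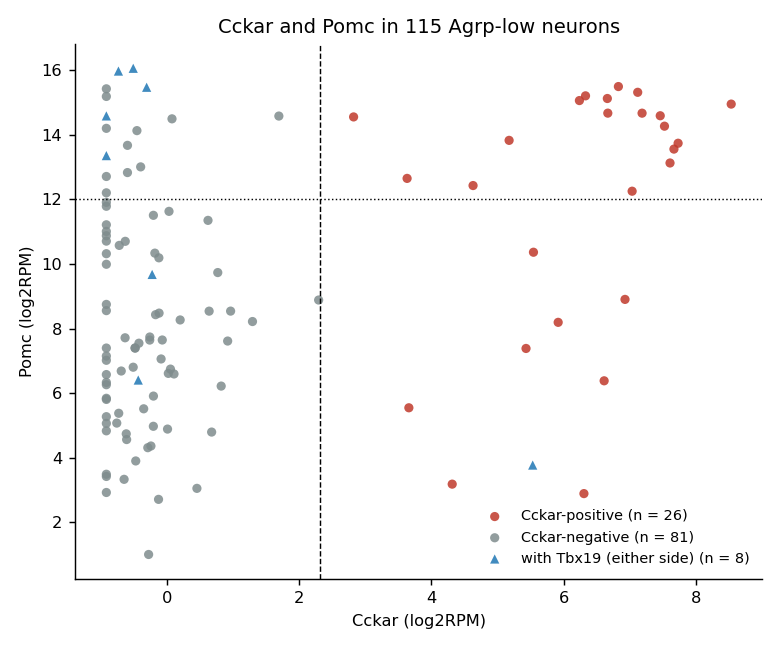
*Cckar* (horizontal axis, log2RPM) against *Pomc* (vertical axis, log2RPM) in the Agrp-low neurons. Each point is a cell, the dashed line marks 2.32 log2RPM of *Cckar* and the dotted line 12 log2RPM of *Pomc*, and triangles are the 8 cells with *Tbx19*. The upper right quadrant holds 18 cells and the lower right 9, and all 5 triangles above the dotted line are *Cckar*-negative.

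Within Pomc-high cells *Pomc* no longer differed by the step of 1, at -0.05 between the 18 positive and the 16 negative cells. It differed by -0.93 within Pomc-low cells. A set of cells stands apart here. *Tbx19*, a transcription factor of the pituitary POMC lineage, was at 8.01 to 10.80 log2RPM in 8 Agrp-low cells and at 3.43 or less in all other cells. Of these 8 cells, 1 was *Cckar*-positive, with *Pomc* at 3.78, and 7 were *Cckar*-negative, of which 5 were Pomc-high. The 5 Pomc-high cells had a mean level of 20 immediate early genes above any of the other Pomc-high cells, as the plot of genes per cell, immediate early genes and depth shows. Their mean over 18 housekeeping and pan-neuronal genes was 4.63 to 6.09, against 6.28 or more in the other Pomc-high cells. Their mean over 17 heat shock and stress genes was 8.39 to 11.48, against 6.58 at most. Whether they are neurons of the arcuate nucleus cannot be told from the labels. Values within Pomc-high cells are therefore also given for 18 positive against 11 negative cells, with the *Tbx19* cells left out. Mean *Pomc* was then 14.19 in positive and 13.86 in negative cells, and 6.61 and 7.20 in Pomc-low cells. Leaving the *Tbx19* cells out was chosen after the values were seen. The part of these cells in the other results was not tested.

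**Figure D2:**
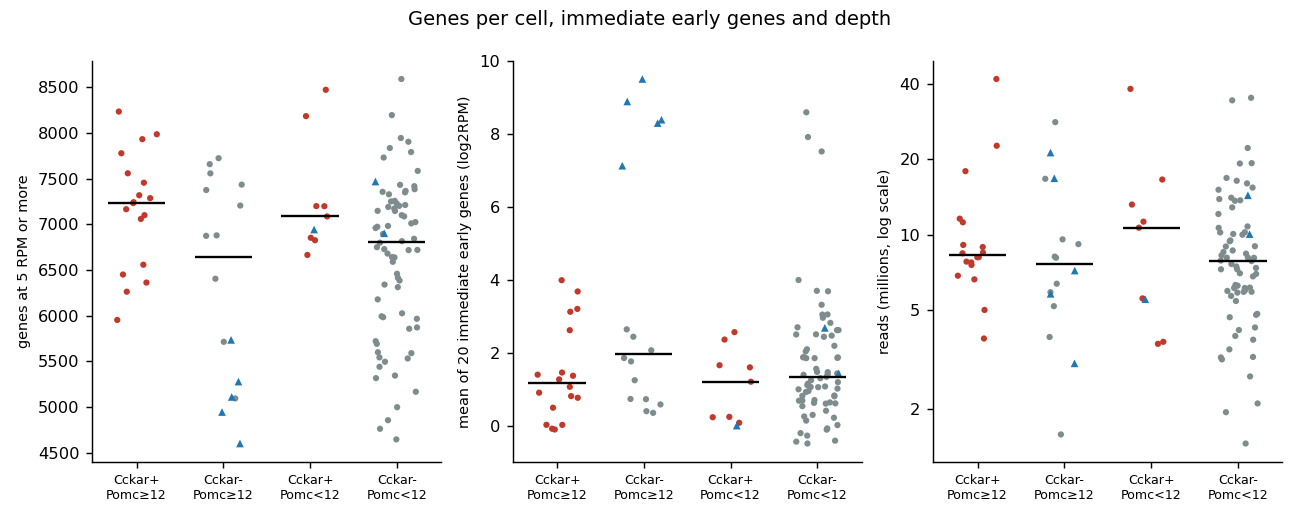
Genes at 5 RPM or more per cell, mean log2RPM of 20 immediate early genes, and depth in M reads on a log scale, for Agrp-low cells in 4 groups by *Cckar* and *Pomc*. Points are cells, bars are medians and triangles are *Tbx19* cells. The 5 *Tbx19* cells that are Pomc-high reach up to 9.51 in the middle panel, while the *Cckar*-positive cells reach 4.0 at most.

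Across all genes, a mean log2RPM at least 1 higher in *Cckar*-positive than in *Cckar*-negative cells is called higher, and at least 1 lower is called lower. In Agrp-low cells 834 of 12186 genes (6.84%) were higher and 173 (1.42%) were lower, around a median difference of 0.17. After cells were rescaled to an equal mean over 2711 widely detected genes the median was 0.01 and the counts were 468 higher and 284 lower, so that higher genes made up 62.2% of both in place of 82.8%. Against that median of 0.17, 496 genes (4.07%) were at least 1 above and 320 (2.63%) at least 1 below. The step of 1 is small beside the spread. Only 9 genes (0.0739%) were higher by at least the pooled SD over cells, and 0 were lower by as much. By that ratio *Nmur2*, *Cpne4*, *Prdm12*, *D330045A20Rik*, *Pcdh8* and *Fam159b* came first.

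Many of the 834 higher genes were also higher where *Pomc* was high in both groups. Within Pomc-high cells 611 of the 834 (73.3%) stayed at least 1 higher, and 96 of the 173 lower genes (55.5%) stayed at least 1 lower. Without the *Tbx19* cells these counts were 410 (49.2%) and 78 (45.1%). With fewer cells more genes pass the step, and the background within Pomc-high cells was 2463 higher (20.2%) and 924 lower (7.58%), or 1448 (11.9%) and 974 (7.99%) without the *Tbx19* cells. Within Pomc-low cells it was 1827 higher (15%) and 546 lower (4.48%), or 2142 (17.6%) and 547 (4.49%) without the *Tbx19* cells. Both Pomc ranges, without the *Tbx19* cells, held 216 of the 834 higher and 27 of the 173 lower genes past the step. The share of all genes past the step in both ranges is not given here. Whether 216 and 27 are more than that background therefore cannot be told. The same cells enter each of these counts, so they are not independent of each other.

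Of the 12 genes furthest higher 5 were past the step at both levels of *Pomc* as well. *Cpne4*, a calcium-dependent membrane-binding protein, ranged from -0.91 to 8.29 (median 5.98) in *Cckar*-positive cells and from -0.91 to 8.09 (median -0.02) in negative cells. The ranges overlapped from -0.91 to 8.09, but 21/27 positive and 26/88 negative cells had 5 RPM or more. The difference of means was 3.28, and it was 2.34 in Pomc-high and 2.31 in Pomc-low cells without *Tbx19* cells. *Pcdh8*, a protocadherin of cell contacts, stood at a median of 5.69 (-0.91 to 8.04) in positive and -0.05 (-0.91 to 7.37) in negative cells. It was on in 20/27 against 23/88 cells, and its difference of 3.08 was 1.60 in Pomc-high and 3.29 in Pomc-low cells. *Fam46a* was 2.52 higher, with 2.36 and 2.07 in the same Pomc ranges. *D330045A20Rik* was 2.90 higher, with 1.95 and 1.57, and *Maob*, the monoamine oxidase B, was 2.64 higher, with 1.80 and 1.52.

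*Fam159b* had the largest difference among genes found in at least 50% of *Cckar*-positive cells. Without *Tbx19* cells it passed the step at neither level of *Pomc*. Its level had a median of 7.97 (-0.50 to 10.02) in positive and 1.83 (-0.91 to 9.54) in negative cells, a difference of 3.37. Within Pomc-high cells the medians were 8.65 and 8.48 once *Tbx19* cells were left out, and the difference was 0.76. It was 0.84 in Pomc-low cells. *Ppp1r17*, which encodes a regulator of protein phosphatases, went from 2.56 to 0.71 in the same Pomc-high cells, and *Msn*, the membrane linker moesin, from 2.51 to 1.81. *Pon2* differed by 1.24 there, of 2.70 in all cells, and *Sema5a*, a semaphorin, by 0.99 of 2.73.

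**Figure D3:**
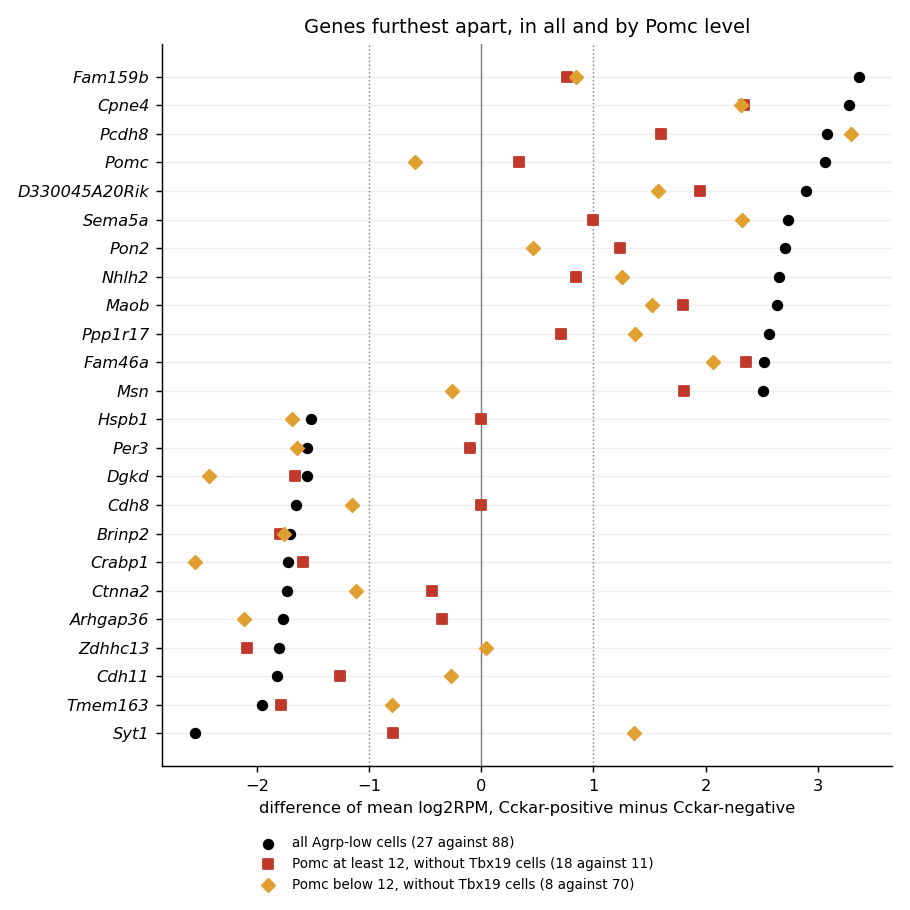
Difference of mean log2RPM, *Cckar*-positive minus *Cckar*-negative, for the 12 genes furthest higher and the 12 furthest lower among those at 5 RPM or more in 50% or more of the higher group's cells. Circles are all Agrp-low cells, squares Pomc-high and diamonds Pomc-low cells without *Tbx19* cells, and dotted lines mark 1 and -1. *Cpne4*, *Pcdh8*, *D330045A20Rik*, *Maob* and *Fam46a* lie to the right of 1 with all 3 symbols, and *Syt1* lies on both sides of 0.

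Of 33 measured arcuate transcription factors 6 were higher and 2 lower, with a median difference of 0.25. *Prdm12*, a factor that hypothalamic *Pomc* expression depends on, was at 5 RPM or more in 13/27 *Cckar*-positive cells (median 1.78, -0.91 to 6.78) and 8/88 negative cells (median -0.91, -0.91 to 7.60). Its difference was 2.66, falling to 1.04 in Pomc-high cells (12/18 against 5/11) and 0.38 in Pomc-low cells without *Tbx19* cells. *Nhlh2*, a basic helix-loop-helix factor of the hypothalamus, was on in 18/27 against 20/88 cells with medians of 5.63 and 0.25, and differed by 2.66, or 0.85 in Pomc-high cells. The homeobox genes *Six3* (1.81), *Six6* (1.46) and *Isl1* (1.21) and the SRY-box gene *Sox2* (1.80) were the others higher. Only *Sox2* among these 4 kept a difference past 1 in Pomc-high cells, at 1.40. *Sox14* was 1.26 lower, found in 0/27 positive and 16/88 negative cells, and *Dlx5* 1.20 lower, in 2/27 and 22/88.

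The promoters of *Nmur2* and *Nhlh2* are shown because the first is the receptor gene with the largest difference here and the second encodes a factor of the class that binds the E-box CANNTG. Each is 250 bases before to 50 after the start of transcription, from RefSeq in GRCm38.p6, 5′ to 3′ on the gene's strand, with each CANNTG in capitals. This motif reads the same on both strands. The first lies at chr11:56040938-56041237 on the minus strand, and the second at chr3:102009895-102010194 on the plus strand.
Nmur2: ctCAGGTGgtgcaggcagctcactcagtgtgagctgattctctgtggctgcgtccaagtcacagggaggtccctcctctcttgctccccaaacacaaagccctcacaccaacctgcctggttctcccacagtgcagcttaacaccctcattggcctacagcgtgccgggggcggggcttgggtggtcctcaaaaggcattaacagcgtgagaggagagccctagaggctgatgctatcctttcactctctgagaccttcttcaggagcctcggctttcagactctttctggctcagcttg
Nhlh2: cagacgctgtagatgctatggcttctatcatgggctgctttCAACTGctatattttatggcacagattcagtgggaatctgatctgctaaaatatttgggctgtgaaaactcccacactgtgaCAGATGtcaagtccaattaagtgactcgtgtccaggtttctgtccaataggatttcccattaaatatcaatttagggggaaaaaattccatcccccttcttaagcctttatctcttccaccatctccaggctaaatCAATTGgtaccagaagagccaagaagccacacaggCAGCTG

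The *Nmur2* promoter held 1 CANNTG and that of *Nhlh2* held 4. The promoter of *Prdm12*, not printed, held 0. At least 1 is present in 72.3% of 32851 mouse promoters of this length, and at least 4 in 6.49%. A match, or none, describes the letters in this window and says nothing of binding.

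Receptors for peptides differed in both directions, with 6 of 38 higher and 3 lower (after rescaling 4 and 4) and a median difference of 0.10. *Nmur2*, the receptor for neuromedin U, a peptide that reduces feeding, was on in 13/27 *Cckar*-positive and 4/88 negative cells. Its level ran from -0.91 to 8.30 (median 0.90) in positive and from -0.91 to 7.24 (median -0.91) in negative cells, a difference of 3.03 with a pooled SD of 2.15. All 13 positive cells with *Nmur2* were Pomc-high. In that range it was on in 13/18 positive cells (median 5.42) against 3/11 negative cells without *Tbx19* (median -0.91), a difference of 3.25, while the 9 Pomc-low positive cells ranged only from -0.91 to -0.35. After thinning to 3.76 M reads per cell, which left out 2 positive and 10 negative cells, *Nmur2* was found in 13/25 and 3/78 cells.

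*Oprm1*, the mu opioid receptor, was on in 11/27 against 6/88 cells and was 1.75 higher (2.39 in Pomc-high cells without *Tbx19* cells). *Mchr1*, the receptor for melanin-concentrating hormone, was 1.18 higher and stayed past 1 at both levels of *Pomc* (1.19 and 2.45). *Prlhr*, for prolactin-releasing peptide, was on in 7/27 against 3/88 cells and was 1.26 higher, with 0.57 in Pomc-high cells. *Npy2r*, a receptor for neuropeptide Y, was 1.14 higher across Agrp-low cells but differed by -0.61 in Pomc-high cells, where 12/18 positive and 9/11 negative cells had it. *Adcyap1r1*, for the peptide PACAP, was 1.06 higher, and differed by -0.30 in that range. *Crhr1* (2/27 against 7/88) and *Hcrtr1* (4/27 against 3/88) differed by -0.24 and 0.73.

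*Mc3r*, the melanocortin 3 receptor, was the other way round. It was on in 5/27 *Cckar*-positive cells (median -0.35, -0.91 to 5.76) and in 39/88 negative cells (median 0.74, -0.91 to 8.30). The difference of -1.70 was -2.49 in Pomc-high cells (3/18 against 7/11) and -1.35 in Pomc-low cells, without *Tbx19* cells. After thinning it was found in 4/25 and 33/78 cells. *Qrfpr*, the receptor for the peptide QRFP, was on in 1/27 and 26/88 cells and was 1.76 lower. All 18 Pomc-high positive cells lay at 0.76 or less for *Qrfpr*, against 5/11 negative cells on, a difference of -3.18. *Npy5r* was 1.14 lower, mostly in Pomc-low cells (-2.13 against -0.50).

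**Figure D4:**
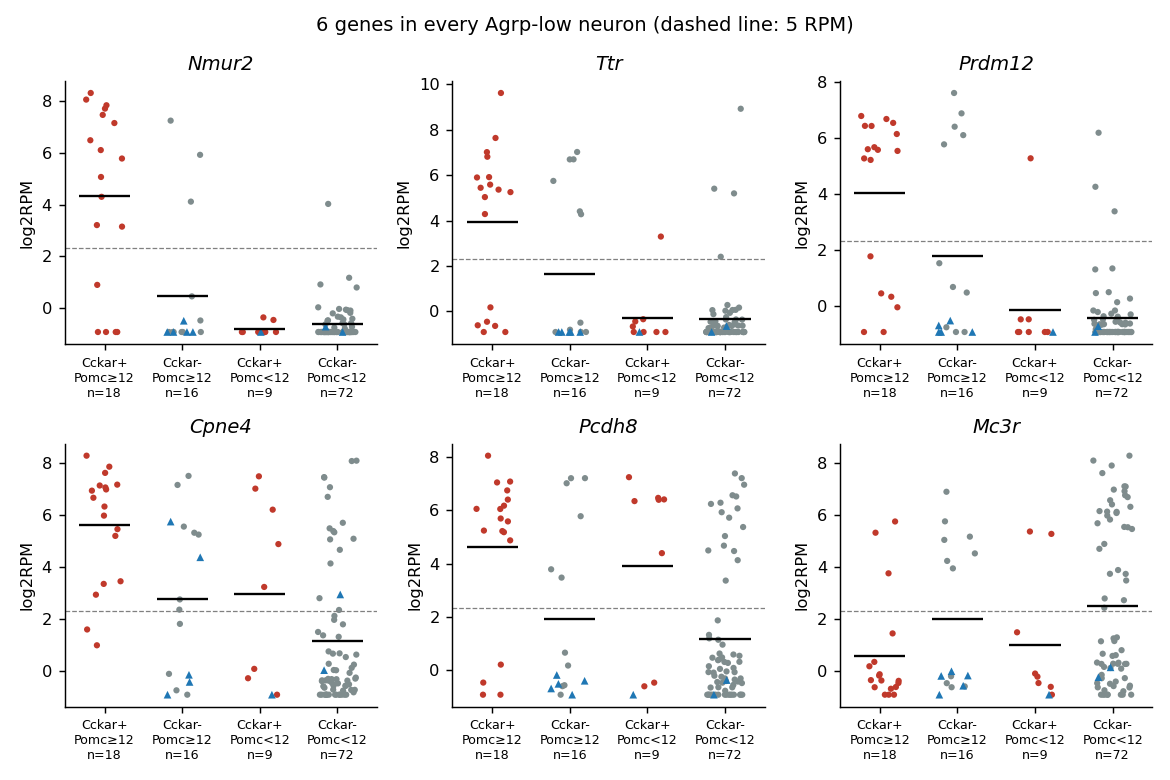
Level of *Nmur2*, *Ttr*, *Prdm12*, *Cpne4*, *Pcdh8* and *Mc3r* (log2RPM) in each Agrp-low neuron, by *Cckar* and *Pomc*. Bars are means, the dashed line marks 5 RPM and triangles are *Tbx19* cells. Cells on and off are found in nearly every column, and *Nmur2* is above the dashed line in 13 of 18, 3 of 16, 0 of 9 and 1 of 72 cells from left to right.

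Of 28 receptors for amines, lipids and other small transmitters 5 were higher and 0 lower, with a median difference of 0.60. *Hrh1*, the histamine H1 receptor, was 1.71 higher, but differed by -1.27 in Pomc-high and 2.66 in Pomc-low cells without *Tbx19* cells. *Cnr1*, the cannabinoid receptor, was 1.64 higher, with -0.19 and 2.21. *Adra2a*, an adrenergic receptor, was 1.43 higher, with 1.83 and 0.50. *Htr2a* was on in 4/27 and 5/88 cells, and 3 of those 4 were Pomc-low.

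Among 27 hormone and cytokine receptors 5 were higher and 0 lower, but after rescaling 3 and 1. They included *Ghr* for growth hormone (1.39), *Acvr2a* for activins (1.32), *Bmpr1a* (1.10) and *Prlr* for prolactin (1.07). After rescaling *Bmpr1a* (0.75) and *Prlr* (0.84) no longer reached the step, and *Thrb*, a thyroid hormone receptor, was at -1.03. *Acvr2a* stayed past 1 at both levels of *Pomc* (1.66 and 1.12). *Lepr*, the leptin receptor, was on in 8/27 and 12/88 cells and differed by 0.88. *Insr*, the insulin receptor, was on in 19/27 and 52/88 cells and differed by 0.29. Neither reached the step of 1. In Pomc-high cells without *Tbx19* cells 3 of the 27 were higher, close to the 11.9% of all genes, and 6 were lower, where 7.99% of all genes were. The 6 were *Lifr*, *Thrb*, *Ntrk3*, *Igf2r*, *Acvr1c* and *Fgfr1*.

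Secreted peptides had 6 of 20 measured genes higher and 1 lower, with a median difference of 0.19. Besides *Pomc* these were *Ttr*, the thyroid hormone carrier transthyretin (2.50), *Pdyn* for dynorphin (1.64), *Nucb2* (1.41), *Cartpt* for the peptide CART (1.33) and *Grp* (1.10). *Ttr* was on in 13/27 against 10/88 cells, with medians of 0.17 and -0.91, and differed by 1.12 in Pomc-high cells without *Tbx19* cells (12/18 against 6/11). *Pdyn* (0.47) and *Cartpt* (-0.35) did not reach the step there. *Pnoc*, which encodes nociceptin, was 1.31 lower. *Agrp* and *Npy* differed by -0.13 and -0.18. Of 26 peptide processing and granule genes 2 were lower, *Sytl4* and *Pcsk6*, and 2 higher, *Pcsk2* (1.81), a protease that cleaves POMC, and *Vgf* (1.55). Neither of the higher genes reached 1 in Pomc-high cells without *Tbx19* cells. Of 39 genes of entry, folding and export in the endoplasmic reticulum 1 was higher and 2 lower.

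In Pomc-high cells the 4 genes *Nmur2*, *Ttr*, *Prdm12* and *Nhlh2* were not found in the same *Cckar*-positive cells throughout. All 4 were on in 7/18 positive cells, and at least 1 in 17/18. Among the 11 negative cells without *Tbx19* all 4 were on in 1 and at least 1 in 9. *Nmur2* and *Ttr* were on together in 10/18 and 2/11 cells.

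Of 49 measured effectors of Gq-coupled receptors 5 were higher and 1 lower, with a median of 0.16, near that of all genes. The balance did not hold, with 3 higher and 2 lower after rescaling and 2 higher and 4 lower at a *Cckar* cut-off of 1 RPM. *Orai1*, a store-operated calcium channel subunit, was on in 17/27 against 23/88 cells and 1.90 higher, and *Trpc4*, a receptor-operated cation channel, in 10/27 against 7/88 cells and 1.76 higher. *Trpc4* stayed past 1 at both levels of *Pomc* (2.14 and 1.46), and *Orai1* in Pomc-low cells only (1.43, against 0.33). *Trpc1*, *Rgs8* and *Prkcb* were 1.24, 1.23 and 1.13 higher (after rescaling *Trpc1* was at 0.998 and *Prkcb* at 0.75), and *Dgkz*, a diacylglycerol kinase, 1.42 lower. Of 73 voltage-gated and related channels 14 were higher and 0 lower, where 6.84% and 1.42% of all genes were. After rescaling 4 were higher and 0 lower, where 3.84% and 2.33% of all genes were. In Pomc-high cells without *Tbx19* cells 9 were higher and 5 lower, where 11.9% and 7.99% of all genes were. In Pomc-low cells without *Tbx19* cells 24 were higher and 2 lower, where 17.6% and 4.49% of all genes were. *Kcnc2*, a potassium channel of fast-spiking neurons, had the largest difference (2.46), with 23/27 against 41/88 cells on, 1.82 in Pomc-high and 2.02 in Pomc-low cells without *Tbx19* cells.

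**Figure D5:**
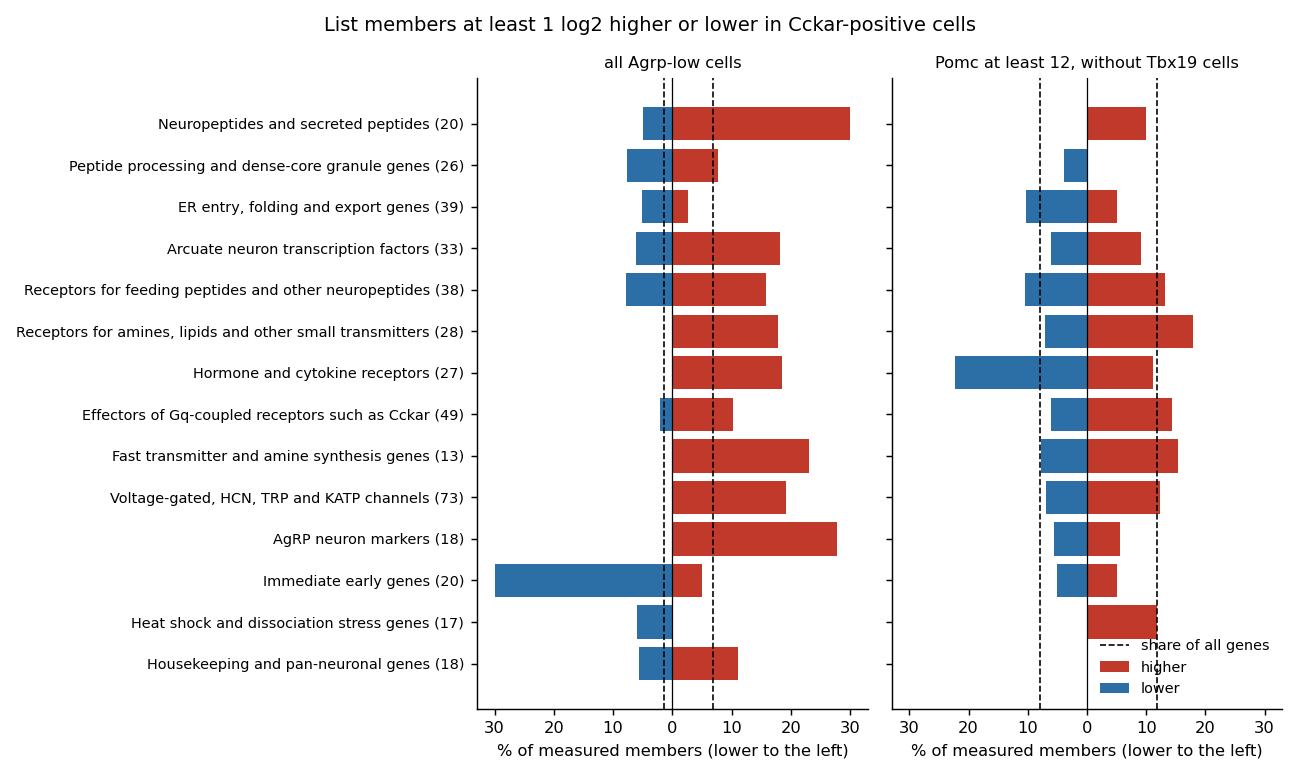
Percent of the measured members of 14 gene lists that were at least 1 log2 higher (to the right) or lower (to the left) in *Cckar*-positive cells, with the number measured in brackets. Dashed lines mark the percent of all 12186 genes, 6.84 and 1.42 in all Agrp-low cells and 11.9 and 7.99 in Pomc-high cells without *Tbx19* cells. The bar for immediate early genes reaches 30% lower in the left panel and 5% in the right.

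Fast transmitter genes had 3 of 13 higher and 0 lower. *Gad2*, which makes GABA, was at a median of 8.41 (0.65 to 10.18) in positive and 6.59 (0.05 to 10.66) in negative cells, a difference of 2.07. It was 0.77 in Pomc-high and 2.72 in Pomc-low cells without *Tbx19* cells. *Gad1* differed by 0.74 and *Slc17a6*, the glutamate transporter of synaptic vesicles, by 0.67. *Gad1* or *Gad2* was on in 26/27 positive and 84/88 negative cells, and together with *Slc17a6* in 19/27 and 53/88. *Slc18a2*, the vesicular monoamine transporter, was 2.17 higher, but -0.11 in Pomc-high cells. *Ddc*, which makes amines, was 1.37 higher.

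The gene furthest lower changed side with *Pomc*. *Syt1*, the calcium sensor of synaptic vesicles, had a median of 4.10 (-0.91 to 10.70) in positive and 8.13 (-0.35 to 11.40) in negative cells, a difference of -2.55. In the Pomc-low range it was on in 9/9 positive (8.71 to 10.70) and 70/72 negative cells and was 1.36 higher in the positive cells without *Tbx19* cells. In the Pomc-high range it was on in 10/18 and 5/11 cells and differed by -0.79. Both Pomc-high groups were thus lower in *Syt1* than both Pomc-low groups. Of the other lower genes, *Brinp2* (-1.70), *Crabp1*, a retinoic acid binding protein (-1.72), and *Dgkd*, a diacylglycerol kinase (-1.56), were lower at both levels of *Pomc*. *Tmem163* (-1.96), *Cdh11*, a cadherin (-1.82), and *Zdhhc13* (-1.80) were lower in Pomc-high cells only, at -1.79, -1.26 and -2.09. *Arhgap36* (-1.77), *Ctnna2* (-1.73), *Cdh8* (-1.65), *Per3* (-1.56) and *Hspb1* (-1.52) were lower in Pomc-low cells only. These counts by range leave out the *Tbx19* cells.

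The genes furthest apart within Pomc-high cells were partly others. *Nmur2* (3.84), *Vstm2a* (3.83), *Rwdd4a* (3.82) and *Ikbkap* (3.58) led the higher genes, followed by *Tmem41a*, *Ica1l*, *Unc5c* and *Eid2b* at 3.38 to 3.50. Without the *Tbx19* cells these 8 were still 2.53 to 3.25 higher. *Rwdd4a* ranged from 3.55 to 7.13 in the 18 positive cells and from -0.91 to 6.35 in the 11 negative cells. *Zfp746*, a zinc finger repressor, led the lower genes at -4.0, or -4.68 without *Tbx19* cells, with 1/18 positive (median -0.73) and 9/11 negative cells on (median 5.40). In Pomc-low cells *Zfp746* was on in 5/9 and 21/72 cells and differed by 1.28. *Egr1* (-3.49), *Btg2* (-3.17) and *Atf3* (-3.14), all immediate early genes, differed by -0.05, -0.03 and 0.24 once the *Tbx19* cells were left out. *H2-K1*, *Tlk1*, *Repin1* and *Hist1h2bc* were lower by 3.16 to 3.32, and without the *Tbx19* cells by 1.18 to 2.46.

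Partly other genes were furthest apart in the 9 Pomc-low *Cckar*-positive cells. Of these 9 cells 1 had high *Tbx19* and 2 had 3 or more markers of another cell type at 5 log2RPM or more. *Adcy2*, an adenylyl cyclase, was on in 9/9 of them (2.86 to 8.97) and in 21/72 Pomc-low negative cells (median 0.49), and was 4.68 higher without *Tbx19* cells, against 0.82 in Pomc-high cells. *Nxph1*, a secreted ligand of neurexins, was on in 7/8 against 21/70 cells and 4.60 higher, without *Tbx19* cells. By the same rule as above *Dcaf13*, *Crabp1*, *BC048546* and *Vldlr* were furthest lower. Peptide genes are given besides, without *Tbx19* cells and whatever their rank. *Sst*, which encodes somatostatin, was on in 6/8 against 27/70 cells and 3.20 higher. *Cartpt* (-2.46), *Gal*, which encodes galanin (-2.27), and *Pnoc* (-2.41) were lower in these cells. Each of these differences rests on 8 positive cells. Without the 2 cells with markers of another type, 6 positive cells remained, and *Adcy2*, *Nxph1* and *Sst* were 4.68, 4.47 and 2.88 higher. The 3 genes were not particular to these cells, since in Agrp-high cells *Adcy2* was on in 33/48, *Nxph1* in 21/48 and *Sst* in 34/48.

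Immediate early genes had 1 of 20 higher and 6 lower, with a median of -0.85, against 10 lower after rescaling. *Egr1*, *Fos*, *Jun*, *Btg2*, *Ier2* and *Junb* were 1.06 to 1.37 lower. Without the *Tbx19* cells 0 of the 20 were lower across Agrp-low cells, where 187 of all genes (1.53%) were lower and 751 (6.16%) higher, and the median of the 20 was -0.30. Within Pomc-high cells 16 were lower with them and 1 without, where 7.58% and 7.99% of all genes were. The 1 of 20 was thus not above the share of all genes. Within Pomc-low cells 5 were lower with the *Tbx19* cells and 3 without, where 4.48% and 4.49% of all genes were. The median of the 20 without them was -0.44. Besides the *Tbx19* cells 3 *Cckar*-negative Pomc-low cells stood apart, with a mean of these 20 genes at 7.52 to 8.60 against 4.0 at most in the rest of the Agrp-low cells. With these left out too, which lowers the negative group by construction, 1 of the 20 was lower in Pomc-low cells and 0 across Agrp-low cells. In Pomc-low cells 7 of the 20 were lower, and 0 higher, without *Tbx19* cells and cells with 3 or more markers of another type. Their median was then -0.79, and the share of all genes in that setting is not given here. Of 18 housekeeping and pan-neuronal genes 2, *Elavl4* and *Stmn2*, were higher and 1, *Syt1*, was lower, and none of the 18 passed the step in Pomc-high cells without *Tbx19* cells. Of 17 heat shock and stress genes 1, *Hspb1*, was lower across Agrp-low cells. Within Pomc-high cells 8 of the 17 were lower with the *Tbx19* cells and 0 without, where 7.58% and 7.99% of all genes were. Genes at 5 RPM or more had a median of 7198 per cell in *Cckar*-positive and 6807.5 in negative cells, and 7141 and 6813.5 after thinning. *Stmn2*, a pan-neuronal gene, was at 8.65 to 11.27 in all *Cckar*-positive cells and at 2.37 to 11.29 in negative cells.

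Of 18 markers of AgRP neurons, which share the arcuate nucleus with POMC neurons, 5 were higher and 0 lower across Agrp-low cells. These were *Gad2*, *Serpina3n*, *Ghr*, *Asb4* and *Npy2r*, while *Agrp* and *Npy* were not among them. In Pomc-high cells without *Tbx19* cells 1, *Gad1*, was higher and 1, *Acvr1c*, lower. Markers of cells other than neurons were found in a few cells of both groups. Pituitary markers, of which 5 of 11 were measured, had a mean level of -0.75 to 2.74 (median 0.01) in positive cells. In negative cells it was -0.84 to 6.47 (median -0.11). At least 3 of them stood at 5 log2RPM or more in 0 positive and 4 negative cells, and in 1 negative cell without the *Tbx19* cells. Oligodendrocyte markers, 7 of 13 measured, ran from -0.48 to 7.51 and from -0.81 to 10.96, with 2 and 6 such cells, and *Mbp* was the only member past 1 (1.16). Astrocyte and tanycyte markers, 6 of 14 measured, had 1 and 2 such cells, and *Vim* was 1.62 higher. Within Pomc-low cells without *Tbx19* cells 17.6% of all genes were higher in *Cckar*-positive cells, with a median difference of 0.25. There 4 of the 7 oligodendrocyte markers (median 1.18) and 2 of the 6 astrocyte and tanycyte markers (median 0.72) were higher. Without the cells that had 3 or more markers of another type these counts were 2 and 1, with medians of 0.40 and 0.51. Of choroid plexus markers *Ttr* was higher while *Kl* and *Enpp2* were not. Microglial and vascular markers were not analysed here.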

How the data were processed

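Single GFP-positive cells from *Pomc-eGFP* mice were sequenced as SMART-Seq v4 libraries with Nextera XT. The authors made the deposited log2 values (log2RPM) by demultiplexing with CASAVA 1.7, alignment to GRCm38 with TopHat2 2.0.11, counting with Cufflinks 2.2.1 and normalization with edgeR and limma, whose versions are not given in the sources used here. The authors' methods also name a batch correction, but no batch is given for any cell. Of low values from 1 to 20 reads, 99.3% lay within 0.1 of a whole read, from which depth was recovered, and a value of -0.91 log2RPM (0.532 RPM) stands for 0 reads. The table holds 12187 genes, each at 5 RPM or more in at least 7 cells, so genes rarer than this were not analysed here.

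Cells with *Agrp* below 10 log2RPM were split at 5 RPM of *Cckar*, together and at 12 log2RPM of *Pomc*. Differences are between means of log2RPM, and a step of 1 was used to call a gene higher or lower. They understate the change of genes near the floor. All cells are 1 sample without replicates, so no test was run. Shares carry exact Clopper-Pearson 95% intervals where given. Named genes are the 12 furthest apart in each direction in Agrp-low cells and the 8 within Pomc-high cells, each at 5 RPM or more in 50% or more of the higher group's cells, genes the paper names for its clusters, and members of 19 gene lists, past 1 first. Of 563 list genes 420 were measured, and 1 list, of microglial and vascular markers, had none measured. The split, the lists and these rules were chosen with earlier results of these data known. The genes named for Pomc-low cells (*Adcy2*, *Nxph1*, *Dcaf13*, *BC048546*, *Vldlr*) and those ranked by SD were chosen after their values were seen. So was leaving out cells high in *Tbx19* or immediate early genes (a mean of 7 log2RPM or more). Alternatives were cut-offs of 1 and 10 RPM of *Cckar*, 8 log2RPM of *Agrp* and 11 and 13 log2RPM of *Pomc*, a pseudocount of 0.1 or 5 RPM, only genes found in 10% or more of cells, rescaling by the 2711 genes that 90% or more of cells had, thinning to 3.76 M reads, medians, leaving out cells in which another cell type had 3 or more markers, and ranges of cell number. A marker of another cell type was counted at 5 log2RPM or more. The scripts were tested on simulated data. Promoters came from RefSeq (GRCm38.p6), which matched 3 of 4 genes looked up. Computations used Python 3.11.15, numpy 2.4.6, pandas 2.3.3, scipy 1.17.1 and matplotlib 3.10.9.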

Additional observations from a re-analysis of the deposited data

How the results depend on the processing

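Of the summary values under alternatives, 99 stayed within 1.5 times the count or within the spread as reported, and 46 moved. For named genes with a difference of 1 or more, 23 of 463 values under alternatives, of 13 genes, were under 1 in size, mostly at the *Cckar* cut-off of 1 RPM (*Cartpt* 0.38, *Dgkd* -0.79, *Per3* -0.82) or in 1 range of cell number. Of these 2 reversed, *Arhgap36* (0.24) and *Crabp1* (0.44) in cells 1 to 66 only, and *Pon2* reached 5.79 with medians. *Prlhr* was at 0.93 at the *Cckar* cut-off of 1 RPM, 0.59 with the pseudocount of 5 RPM and 0 with medians. *Npy2r* was at 0.77 with that pseudocount and 0.94 after rescaling. Both were also under 1 in cells 1 to 66 and in cells 67 to 98. Differences under 1 changed sign in 15 values of *Agrp*, *Npy*, *Insr*, *Crhr1*, *Lepr*, *Hcrtr1*, *Htr2a* and *Slc17a6*, so their direction is not settled. The *Pomc* difference lay between 1.76 and 5.88 under every alternative. The *Cckar*-positive share was 39.1% at a cut-off of 1 RPM, and 22.2 to 24.1% in the 3 ranges of cell number. These ranges (1 to 66, 67 to 98 and from 99) are not named as batches in the labels.

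In percent of the 12186 genes, 6.84% were higher, 1.42% lower, 5.01% higher and still higher within Pomc-high cells, and 0.788% lower and still lower there. In that order the pseudocount of 0.1 RPM gave 11.3%, 3.08%, 8.59% and 1.9%, and that of 5 RPM gave 1.19%, 0.205%, 0.878% and 0.0985%. Rescaling gave 3.84%, 2.33%, 2.87% and 1.46%. Cells 1 to 66 gave 14.3%, 7.42%, 7.54% and 4.48%, cells 67 to 98 gave 17.2%, 16.6%, 11.7% and 10.1%, and cells from 99 gave 15.6%, 4.46%, 12.7% and 3.12%. Medians gave 13.1% higher, 2.45% lower and 9.0% still higher, and the *Cckar* cut-off of 1 RPM gave 3.53% higher and 2.73% still higher. With the *Tbx19* cells left out of both comparisons 3.23% were higher and still higher, and 3.2% with the 3 other cells high in immediate early genes left out too.

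Within Pomc-high cells 20.2% of genes were higher, against 7.84% with 5 RPM, 34.5% in cells from 99 and 11.9% without *Tbx19* cells, with or without those 3 cells. The 7.58% lower became 3.07% with 5 RPM, 12.8% after rescaling, 20.1%, 21.9% and 12.9% in the 3 ranges of cell number and 11.5% at a *Pomc* cut-off of 13. In Pomc-low cells 4.48% were lower. Of the 420 list genes measured 14% were higher, against 8.1% at 1 RPM, 5.71% with 5 RPM and 26% in cells from 99. Why these shares moved was not tested, except that fewer cells enter each range and that a larger pseudocount shrinks differences of low genes by construction. Cells from 99 held 9 *Cckar*-negative Pomc-high cells, or 4 without the *Tbx19* cells. Cells 1 to 66 held 3 and cells 67 to 98 held 4, with or without them. The part of the *Tbx19* cells in the shares of cells from 99 was not tested. Of 576 list counts under alternatives 413 stayed within 1.5 times. No paired analysis was possible because the cells form a single group without replicate numbers shared between groups. At a median of 8.10 M reads, a gene near 5 RPM can be missed most easily in the cells with the fewest reads.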
